A study of Mus musculus with 2 samples.

Results

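Genes of the spliceosome and of RNA-binding splicing factors were compared between C2C12 myotubes with a constitutively active estrogen receptor α and myotubes with a control vector. Members were the genes whose annotated symbol starts with Sf3a, Sf3b, Snrp, Srsf, Prpf or Hnrnp, or with Lsm followed by a digit, and that had a probe set naming that gene alone. The rule gave 71 of the 19938 genes named on the array: 3 SF3a, 6 SF3b, 10 Snrp, 13 LSm, 12 Prpf, 10 Srsf and 17 Hnrnp genes. Of these, 70 were measured, meaning that the higher of their signals on both arrays passed a detection floor of 5.11 (log2). The floor was the 95th percentile of the same value over 1210 probe sets for receptors of smell and pheromones, genes taken as silent in muscle cells. The remaining member was Srsf12, at 4.62 in Ad-DsRed against 4.64 in Ad-caERα. A further 6 symbols that fit the rule (Hnrnpa1, Hnrnpa1l2-ps2, Hnrnpa3, Hnrnph3, Snrpf and Snrpn) occurred only on probe sets that name several genes, and they were not analysed here.

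The spliceosome removes introns from newly made RNA. Its cores are small nuclear ribonucleoproteins (snRNPs), each an RNA carrying a ring of Sm proteins or, on U6, LSm proteins, and the SF3a and SF3b complexes belong to the U2 snRNP that binds the branch point. Some Prpf proteins belong to the U4/U6 and U5 snRNPs, and others act elsewhere in splicing, such as with U1 or in the Prp19 complex. SR proteins (Srsf genes) bind exons and mostly promote their use, whereas heterogeneous nuclear ribonucleoproteins (Hnrnp genes) coat nascent RNA and often oppose them. In muscle, such factors act with tissue regulators of the Rbfox, Mbnl and Celf families to set the isoforms of contractile and calcium-handling proteins.

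C2C12 is a mouse myoblast line. Confluent cells were moved from 10% fetal bovine serum to 2% horse serum for 7 days to form myotubes and then received an adenovirus for 48 h, at 30 infectious units per cell by the stated multiplicity. Ad-caERα carried the constitutively active receptor and Ad-DsRed, the control, a red fluorescent protein, so both groups were infected. The labels name neither the promoter of the vectors nor the species and part of the receptor. Each group had 1 array of total RNA, so no difference here has a replicate check, the vectors could not be compared by a test, and single values have no error. Array signal also depends on the probes, so stronger signal in one gene than in another is not read here as more transcript.

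As a check of the labels, Esr1, which encodes the receptor, was at 7.38 in Ad-DsRed against 8.44 in Ad-caERα, 2.08-fold higher. How much of this signal came from the vector's transcript is unknown. All 7 myotube markers looked up were measured on both arrays, with signals in Ad-DsRed from 8.83 (Myog) to 12.92 (Acta1). The summed log2 signal of these 7 was 78.76 in Ad-DsRed against 78.41 in Ad-caERα. Single markers went both ways, with differences from -0.25 (Myh3) to 0.22 (Des). Of markers of other cell types, 1 of 5 leukocyte (Cd68), 1 of 4 endothelial (Tek), 2 of 4 adipocyte (Plin1, Cidec) and 1 of 4 neuronal genes (Tubb3) were measured. Summed over each whole list, genes below the floor included, the log2 signals in Ad-DsRed and Ad-caERα were 23.19 and 23.04 for leukocyte, 19.08 and 19.37 for endothelial, 18.94 and 18.39 for adipocyte, and 22.47 and 22.11 for neuronal genes. Ptprc, Pecam1, Adipoq and Rbfox3, defining genes of those types, were below the floor. Genes of a list went both ways, as with Cd68 (0.25) and Ptprc (-0.27), and their part in the results was not tested. RNA per cell and cell number cannot be told apart in bulk cultures.

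Transcripts of the splicing machinery differed little between the arrays. On the log2 scale the difference, Ad-caERα minus Ad-DsRed, ran from -0.327 for Srsf5 to 0.317 for Sf3b5 over the 70 measured members, with a median of -0.044 and an interquartile range from -0.11 to 0.069. By a rule of size, 0 members were higher and 0 lower by 2-fold, against 0.59% and 0.0959% of the 13554 measured genes. At 1.5-fold the members' counts were also 0 and 0, against 1.82% and 0.885% of measured genes. By a smaller rule, a log2 difference of at least 0.322 in size, which is 25% up or 20% down on the linear scale, 0 members were higher and 1, Srsf5, was lower, against 7.34% and 6.76% of measured genes. Among the 25% of measured genes with the strongest signals, which held 39 of the members, 190 of 3389 were higher and 90 lower by this smaller rule. The splicing genes thus lay in the middle of the distribution. Esr1 passed the 2-fold rule in the same arrays, but the vector carried the receptor, so its difference gives no scale for other genes.

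The spread of the differences was narrow too. Their SD was 0.14 over the 70 members, 0.27 over all measured genes and 0.21 over the 25% of measured genes with the strongest signals, to which 39 of the members belonged. As a yardstick within these arrays, probe sets naming the same gene differed with an SD of 0.13 over 770 genes, and of 0.14 over the 13 members with more than 1 probe set. By that yardstick of 0.13, 9 members were higher and 13 lower, against 27% and 25.6% of measured genes. The yardstick is no error between cultures, which is unknown.

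**Figure D1:**
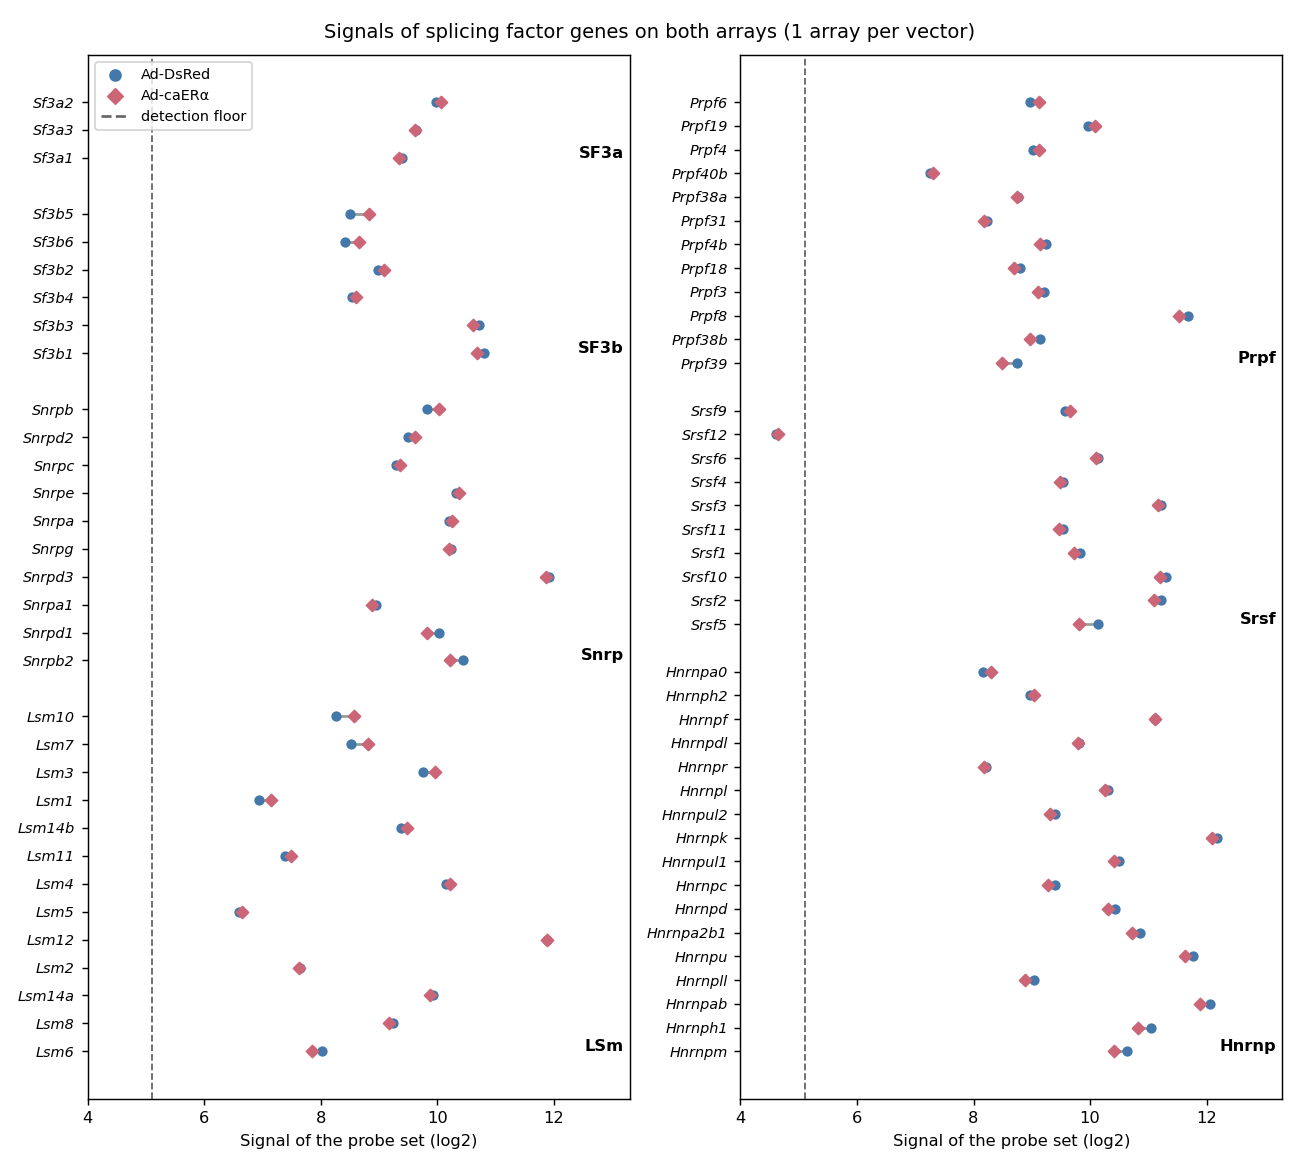
Log2 signal of each of the 71 members (x axis) in Ad-DsRed (circles) and Ad-caERα (diamonds), ordered within its class by the difference, with the detection floor of 5.11 as a dashed line. The pairs of symbols nearly coincide, and Srsf12 alone lies below the floor.

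At smaller sizes, the classes did not share 1 direction. Of the 70 members 26 were above 0 and 44 below, against 50.2% and 48.8% of measured genes. Centring each array on its median gave 32 above and 38 below, against 7667 and 5882 of 13549 measured genes. Hnrnp genes had a median of -0.077 with 15 of 17 below 0, Srsf genes of -0.064 with 8 of 9 below, and Prpf genes of -0.085 with 8 of 12 below. LSm genes had a median of 0.059 with 9 of 13 above 0, and SF3b genes of 0.086 with 4 of 6 above. These 5 medians kept their sign under centring, under a loess correction for signal strength, and under the other settings tried. The other classes lay around 0: the Snrp median was 0.0056 and turned to -0.0099 with loess, and the SF3a median was -0.016 and turned to 0.013 with centring. The median over all measured genes was 0.0017, and 0.032 with centring. All of these class medians were smaller in size than the probe set SD of 0.13, which describes single probe sets and not medians over a class.

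**Figure D2:**
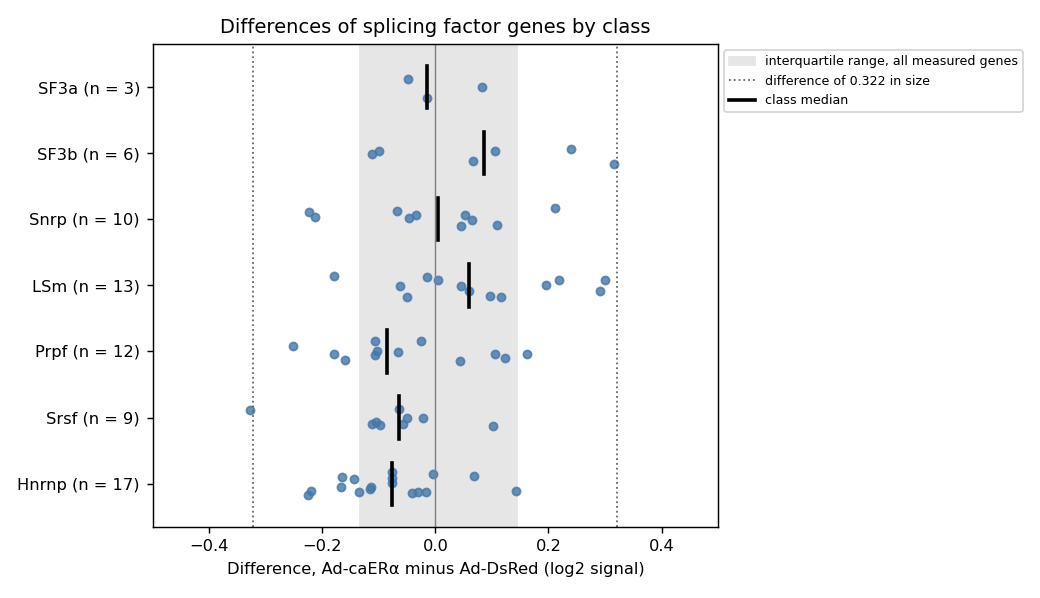
Difference in log2 signal, Ad-caERα minus Ad-DsRed (x axis), of the measured members by class (points, 1 per gene; vertical bars, class medians); grey, the interquartile range of all 13554 measured genes; dotted lines, differences of 0.322 in size. Srsf and Hnrnp points sit mostly left of 0 and LSm points mostly right of it, nearly all inside the dotted lines.

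**Figure D3:**
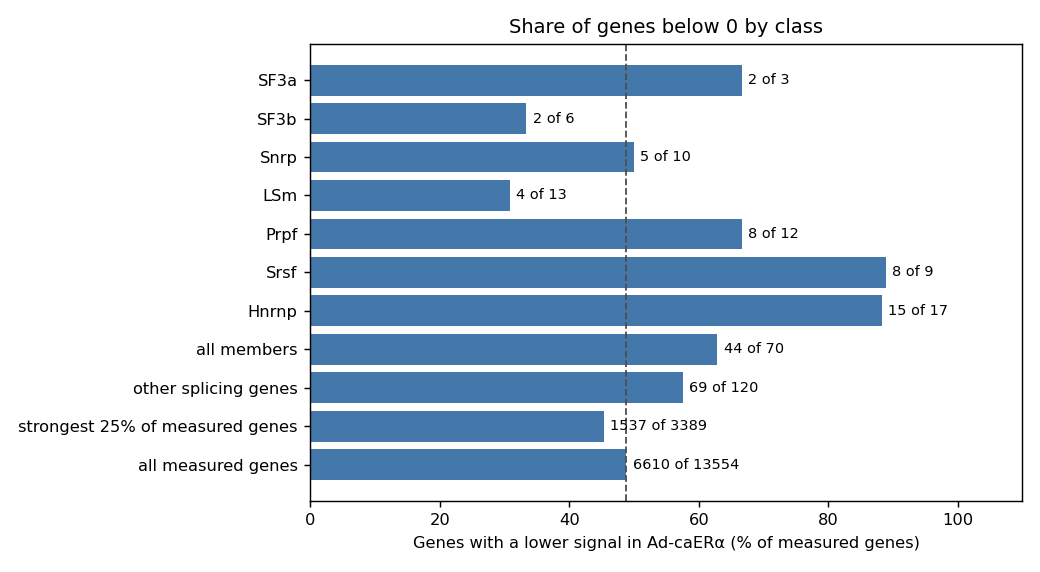
Share of measured genes with a lower signal in Ad-caERα (bars, % from 0; counts beside them) for each class, for the other splicing genes, for the 25% of measured genes with the strongest signals and for all measured genes, whose 48.8% is the dashed line. Srsf (8 of 9) and Hnrnp (15 of 17) have the longest bars and LSm (4 of 13) the shortest.

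The proximal promoters of 3 members at the edges of this range are shown because the introduced factor is a DNA-binding receptor: Srsf5 and Hnrnpm, the lowest of the SR and hnRNP genes, and Lsm10, the highest of the LSm genes. Sf3b5, the highest member, had no entry. Each is the RefSeq window of assembly GRCm38.p6 from 250 bases before to 50 bases after the annotated start, read 5′ to 3′ on the gene's strand. Srsf5 lies at chr12:80945249-80945548 (plus strand), Hnrnpm at chr17:33685409-33685708 (minus strand) and Lsm10 at chr4:126096403-126096702 (plus strand). Capitals mark the estrogen response half-site GGTCA and the ETS-type site CCGGAAG, on either strand.
Srsf5: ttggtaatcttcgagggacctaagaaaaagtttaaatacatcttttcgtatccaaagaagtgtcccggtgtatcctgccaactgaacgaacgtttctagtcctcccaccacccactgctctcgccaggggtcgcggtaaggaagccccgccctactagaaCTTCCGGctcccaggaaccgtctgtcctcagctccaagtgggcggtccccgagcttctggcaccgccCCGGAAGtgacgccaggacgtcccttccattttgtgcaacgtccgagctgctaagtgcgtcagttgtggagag
Hnrnpm: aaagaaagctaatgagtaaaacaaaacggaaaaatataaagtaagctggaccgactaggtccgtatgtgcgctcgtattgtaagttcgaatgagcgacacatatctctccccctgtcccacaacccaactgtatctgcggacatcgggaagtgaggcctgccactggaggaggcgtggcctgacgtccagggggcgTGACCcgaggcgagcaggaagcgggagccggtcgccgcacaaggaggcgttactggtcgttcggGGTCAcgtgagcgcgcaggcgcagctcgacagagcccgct
Lsm10: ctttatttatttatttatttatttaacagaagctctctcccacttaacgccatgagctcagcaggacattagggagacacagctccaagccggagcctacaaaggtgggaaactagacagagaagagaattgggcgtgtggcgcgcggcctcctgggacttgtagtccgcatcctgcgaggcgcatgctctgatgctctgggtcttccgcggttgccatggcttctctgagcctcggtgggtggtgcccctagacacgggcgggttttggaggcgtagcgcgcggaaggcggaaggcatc

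No window of a member held the full letters of an estrogen response element, which are rare in such windows. The palindrome GGTCANNNTGACC, searched on both strands, was in 0 of 80 windows of the 61 members with a promoter entry, against 0.0221% of windows of measured genes and 0.0700% of all 32851 windows. At such low shares, 0 of 80 windows does not set the members apart from other genes. The half-site GGTCA, which the palindrome contains, was in 42.5% of member windows, 38.2% of windows of measured genes and 40.5% of all windows. It was in 36% of windows of members above 0 and 44.4% of those of members below 0. Hnrnpm held it at positions -54 and 11 from the start, while the Srsf5 and Lsm10 windows held none. These are matches of letters in a short window and no measure of binding.

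The members' windows were GC-rich, as were those of measured genes in general. Their median GC content was 60.8%, against 60.3% over windows of measured genes and 52.7% over all windows. CCGGAAG, bound by ETS factors, was in 31.2% of member windows, 15.7% of windows of measured genes and 8.86% of all windows, and the Srsf5 window held 2 matches. The GC box GGGCGG was in 70% of member windows, 60.2% of windows of measured genes and 35.7% of all, and CCAAT in 46.2%, 36.9% and 37.4%. TATAAA was in 7.5%, 7.57% and 13.6%, and the YY1 site AAGATGGCG in 5%, 2.61% and 1.40%. All were searched on both strands, and windows of a gene can overlap, so they are not independent.

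The SF3a genes, which encode the trimer that joins the U2 snRNP to make it able to bind the branch point, were flat. Sf3a1 was at 9.40 in Ad-DsRed against 9.35 in Ad-caERα. Sf3a2 was at 9.97 and 10.06, and Sf3a3 at 9.64 and 9.63. The differences of -0.048, 0.083 and -0.016 were all below the probe set SD.

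In the SF3b complex Sf3b1 and Sf3b3, the genes with the strongest signals, lay below 0 and the other 4 genes above. Sf3b1, the HEAT-repeat scaffold that clamps the branch point, was at 10.80 in Ad-DsRed against 10.68 in Ad-caERα (a difference of -0.11). Sf3b3, its large partner, was at 10.71 and 10.61 (-0.099). Both were lower in Ad-caERα, by less than the probe set SD. The small subunit gene Sf3b5 was at 8.50 in Ad-DsRed against 8.82 in Ad-caERα, a difference of 0.317 that was the highest of the members. Sf3b6, which encodes the subunit that contacts the branch point adenosine region, was at 8.42 and 8.66 (0.24). These 2 of 6 SF3b genes were past the probe set SD, both higher, against 27% higher and 25.6% lower of measured genes. Sf3b2 was at 8.98 and 9.08 (0.10), and Sf3b4 at 8.53 and 8.60 (0.067). The dimmer probe set of Sf3b4, at 6.25 and 6.74, gave 0.49, and averaging both gave 0.28. The value of Sf3b4 therefore depended on the probe set.

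The Snrp genes encode Sm ring proteins and proteins specific to the U1 and U2 snRNPs, and 5 were above 0 and 5 below. Among Sm ring genes Snrpb was highest, at 9.82 in Ad-DsRed against 10.03 in Ad-caERα (0.21). Snrpd1, whose product sits in the same ring, was at 10.03 and 9.82 (-0.21). The ring genes thus had no common direction: 3 of 6 were above 0. Snrpd2 was at 9.50 and 9.61, and all 5 of its probe sets were higher in Ad-caERα, by 0.11 to 0.26. Snrpe (0.052), Snrpg (-0.035) and Snrpd3 (-0.046) differed by less than the probe set SD.

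Among proteins specific to one snRNP, Snrpb2, which binds U2 RNA, was at 10.44 in Ad-DsRed against 10.22 in Ad-caERα. Its difference of -0.22 was the lowest of the Snrp genes. Snrpa1, its partner on U2, was at 8.95 and 8.88 (-0.069). The U1 genes Snrpa, at 10.20 and 10.25 (0.046), and Snrpc, at 9.29 and 9.35 (0.065), lay on the other side of 0. The probe sets of Snrpc spanned 0, from -0.047 to 0.065.

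LSm genes were mostly a little higher in Ad-caERα. Lsm1 to Lsm8 encode the rings of U6 RNA in the nucleus and of mRNA decay in the cytoplasm, with Lsm8 particular to the nuclear ring and Lsm1 to the cytoplasmic ring. Lsm7, shared by both, was at 8.53 in Ad-DsRed against 8.82 in Ad-caERα (0.29), and its other probe set gave 0.31. Lsm3, also shared, was at 9.75 and 9.97 (0.22), and Lsm1 at 6.94 and 7.14 (0.20). Lsm6 went the other way, at 8.03 and 7.85 (-0.18), with all 3 probe sets lower, down to -0.319. Lsm8 was at 9.24 and 9.18 (-0.062). Over the 8 ring genes 5 were above 0 and the median was 0.052, so subunits of the same ring differed in sign.

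Outside these rings, Lsm10, a subunit of the U7 snRNP that processes histone pre-mRNA, was at 8.26 in Ad-DsRed against 8.56 in Ad-caERα. Its difference of 0.30 was the highest of the LSm genes. Lsm11, its U7 partner, was at 7.39 and 7.48 (0.097). Lsm12 was at 11.88 on both arrays, and Lsm14a, a component of cytoplasmic RNA granules, at 9.92 and 9.87 (-0.049). Lsm5 was at 6.60 and 6.65 (0.045), while its probe sets ran from -0.054 to 0.53. The highest of these came from a probe set at 4.97 in Ad-DsRed, below the floor.

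Prpf genes went both ways, also within a particle. In the U4/U6 and U5 snRNPs, Prpf6, which bridges the particles, was at 8.96 in Ad-DsRed against 9.12 in Ad-caERα (0.16). Prpf4 was at 9.02 and 9.12 (0.11). Prpf8, the large U5 protein at the heart of the catalytic centre, was at 11.68 and 11.52 (-0.16). Prpf3 (-0.11) and Prpf31 (-0.066) were also below 0, so 2 of these 5 genes were above 0 and 3 below.

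The lowest Prpf gene was Prpf39, a U1-associated factor, at 8.74 in Ad-DsRed against 8.49 in Ad-caERα (-0.25). Prpf38b was at 9.14 and 8.96 (-0.18), while Prpf38a, a factor of the precatalytic spliceosome, differed by -0.024. Prpf18, a second-step factor, differed by -0.11 and the kinase gene Prpf4b by -0.10. Prpf19, the ubiquitin ligase that names the Prp19 complex, was at 9.97 and 10.09 (0.12), and Prpf40b at 7.25 and 7.30 (0.044). Differences past the probe set SD in this class were those of Prpf6 upwards and of Prpf8, Prpf38b and Prpf39 downwards. That was 1 higher and 3 lower of 12, against 27% and 25.6% of measured genes.

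Of the 9 measured SR protein genes 8 were lower in Ad-caERα, by small amounts, against 48.8% of measured genes. The count was 7 with arrays centred, against 5882 of 13549 measured genes. It was also 7 with probe sets averaged, against 6582 of 13504. Srsf5 was at 10.13 in Ad-DsRed against 9.81 in Ad-caERα, a difference of -0.327, a percent change of -20.3. Its other probe set, at 9.98 and 9.66, gave -0.321. Both probe sets placed Srsf5 below the other Srsf genes; with arrays centred on their medians its difference was -0.30, short of the smaller rule. Srsf2 was at 11.21 and 11.10 (-0.11), and Srsf10, a splicing repressor when dephosphorylated, at 11.30 and 11.19 (-0.11). Srsf1, the founding SR protein, differed by -0.097, Srsf11 by -0.064, Srsf3 by -0.057, Srsf4 by -0.051 and Srsf6 by -0.022. Srsf9 was the exception, at 9.56 and 9.66 (0.10). Except for Srsf5, none of these 9 genes passed the probe set SD, against 27% higher and 25.6% lower of measured genes. The dimmest probe set of Srsf3 gave 0.27, against -0.057 for its other probe sets.

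**Figure D4:**
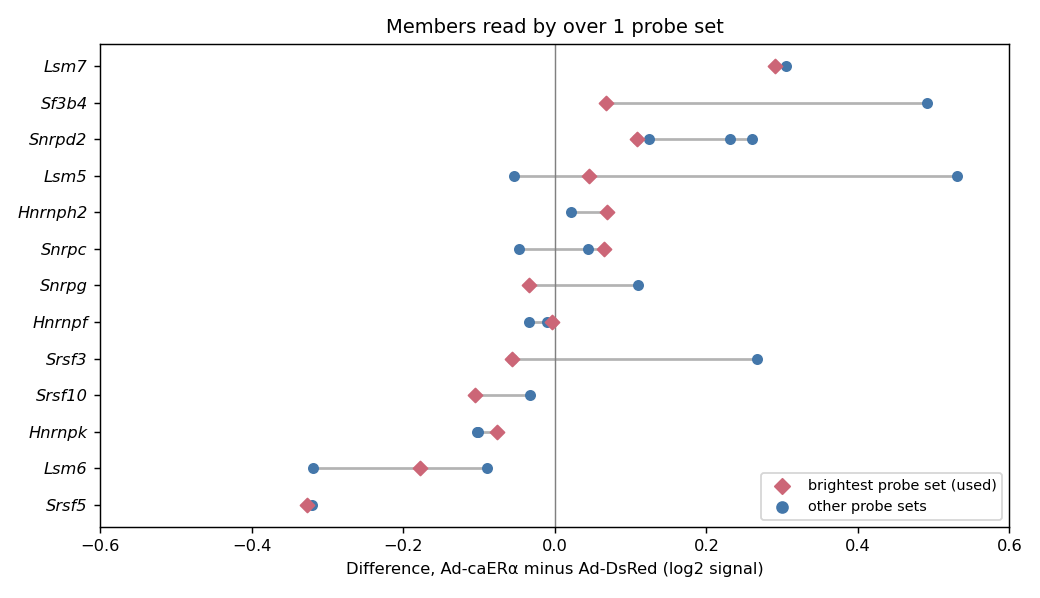
Difference in log2 signal (x axis) for each probe set of the 13 members with more than 1; diamonds mark the brightest probe set, which was used, and circles the others. The probe sets of Srsf5 and of Lsm7 coincide, while those of Lsm5, Sf3b4 and Srsf3 spread over 0.58, 0.42 and 0.32.

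Of the 17 hnRNP genes 15 were below 0, against 48.8% of measured genes. With arrays centred 13 were below 0, against 5882 of 13549 measured genes. Hnrnpm, a regulator of exon skipping, was at 10.63 in Ad-DsRed against 10.40 in Ad-caERα (-0.22). Hnrnph1, which binds G-rich runs, was at 11.05 and 10.83 (-0.22). Hnrnpab was at 12.06 and 11.89 (-0.17), and Hnrnpll, known for switching exons of Ptprc in lymphocytes, at 9.04 and 8.88 (-0.17). These 4 were the lowest of the class. Hnrnpu, a nuclear scaffold protein, was at 11.76 and 11.62 (-0.14), and Hnrnpa2b1 at 10.86 and 10.73 (-0.13).

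The remaining hnRNP genes ran from -0.11 to 0.14. Hnrnpk, a poly(C)-binding protein, was at 12.17 and 12.09, and its 3 probe sets differed by -0.10 to -0.076. Hnrnpd, known as AUF1, which binds AU-rich elements of unstable mRNAs, differed by -0.11, Hnrnpc by -0.11, Hnrnpl by -0.041, Hnrnpr by -0.030 and Hnrnpdl by -0.017. Hnrnpul1 and Hnrnpul2 differed by -0.077 and -0.076. Hnrnpf was at 11.11 on both arrays. Within the H/F family, whose members bind like sequences, Hnrnph1 was thus lower while Hnrnpf and Hnrnph2 (0.069) lay near 0. Hnrnpa0 was the highest of the class, at 8.16 in Ad-DsRed against 8.30 in Ad-caERα (0.14). In all, 1 hnRNP gene was higher and 6 were lower by more than the probe set SD, against 27% and 25.6% of measured genes.

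Over all members together, those with stronger array signals tended to have lower differences, but within most classes this was weak. Across the 70 members, Pearson's r between the difference and the mean signal was -0.37 and Spearman's rho -0.38, whereas over all 13554 measured genes they were 0.12 and 0.16. Within classes r was -0.87 for the 6 SF3b genes and -0.51 for Hnrnp genes. It was -0.17 for Srsf, -0.15 for Snrp, -0.12 for Prpf and -0.087 for LSm genes. Genes are not independent replicates, the values come from the same pair of arrays, and signal depends on the probes, so these are descriptions. Of the 35 members with the stronger signals 26 were below 0, and of the 35 others 18, against 48.8% of all measured genes. With the loess correction on signal, 45 of 70 members were below 0, against 6732 of 13554 measured genes, with 6822 above. Hnrnp genes then had 15 of 17 below 0, and LSm genes 8 of 13 above 0, against 9 before the correction.

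Other genes of the splicing pathway, outside the symbol rule, also differed little. Of 131 listed symbols 122 had a probe set of their own and 120 were measured. Their median difference was -0.027, with 51 above 0 and 69 below, against 50.2% and 48.8% of measured genes. When arrays were centred the median turned to 0.0024, with 60 above and 60 below. Centred, the 13549 measured genes had a median of 0.032, with 7667 above 0 and 5882 below. With loess 42 of the other splicing genes were above 0 and 78 below, against 6822 and 6732 of 13554 measured genes. By the smaller rule of 0.322, 2 were higher and 4 lower, against 7.34% and 6.76% of measured genes, and by 1.5-fold 0 and 0, against 1.82% and 0.885%. Snrnp25, a protein of the U11/U12 snRNP of the minor spliceosome, was highest, at 8.59 in Ad-DsRed against 9.06 in Ad-caERα (0.46). Ctnnbl1, a Prp19-complex protein, was at 7.95 and 8.29 (0.35), and Coil, the scaffold of Cajal bodies where snRNPs mature, at 6.12 and 6.43 (0.31).

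The lowest of these genes were regulators of alternative splicing active in muscle. Rbm38, which takes part in myogenic differentiation, was at 9.21 in Ad-DsRed against 8.80 in Ad-caERα (-0.42). Rbfox1, which binds UGCAUG around muscle and neuronal exons, was at 6.67 and 6.32 (-0.35), and Celf2 at 10.76 and 10.44 (-0.323). The minor spliceosome gene Snrnp35, at 5.55 and 5.22, also passed the smaller rule downwards (-0.322). The counts by role that follow stand beside 50.2% of all measured genes above 0 and 48.8% below. Of regulators of alternative splicing 26 of 33 were below 0 with a median of -0.12. Of exon junction and SR-like genes 12 of 15 were below 0 with a median of -0.11. In the snRNP assembly group, which loads Sm rings on snRNAs, 11 of 13 were above 0 with a median of 0.052. The Prp19 complex and catalytic group had 14 of 24 above 0 and a median of 0.035. Genes of SR protein kinases, which phosphorylate SR proteins, had 5 of 7 below 0 and a median of -0.080, and genes of 3′ splice site recognition 7 of 11 and -0.056, while the other snRNP proteins had 10 of 17 above 0 and a median of 0.058. Families of regulators were named after their values were seen. The measured Mbnl, Rbfox and Celf genes named here were all below 0, by unlike amounts, whereas the Ptbp genes lay on both sides of 0. Mbnl1, Mbnl2 and Mbnl3 differed by -0.052, -0.034 and -0.17. Rbfox2 differed by -0.12, beside -0.35 for Rbfox1, and Celf1 by -0.16, beside -0.323 for Celf2. The repressor genes Ptbp1, Ptbp2 and Ptbp3 differed by 0.021, -0.13 and -0.0031, and the muscle factors Rbm20 and Rbm24 by 0.0032 and -0.27.

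**Figure D5:**
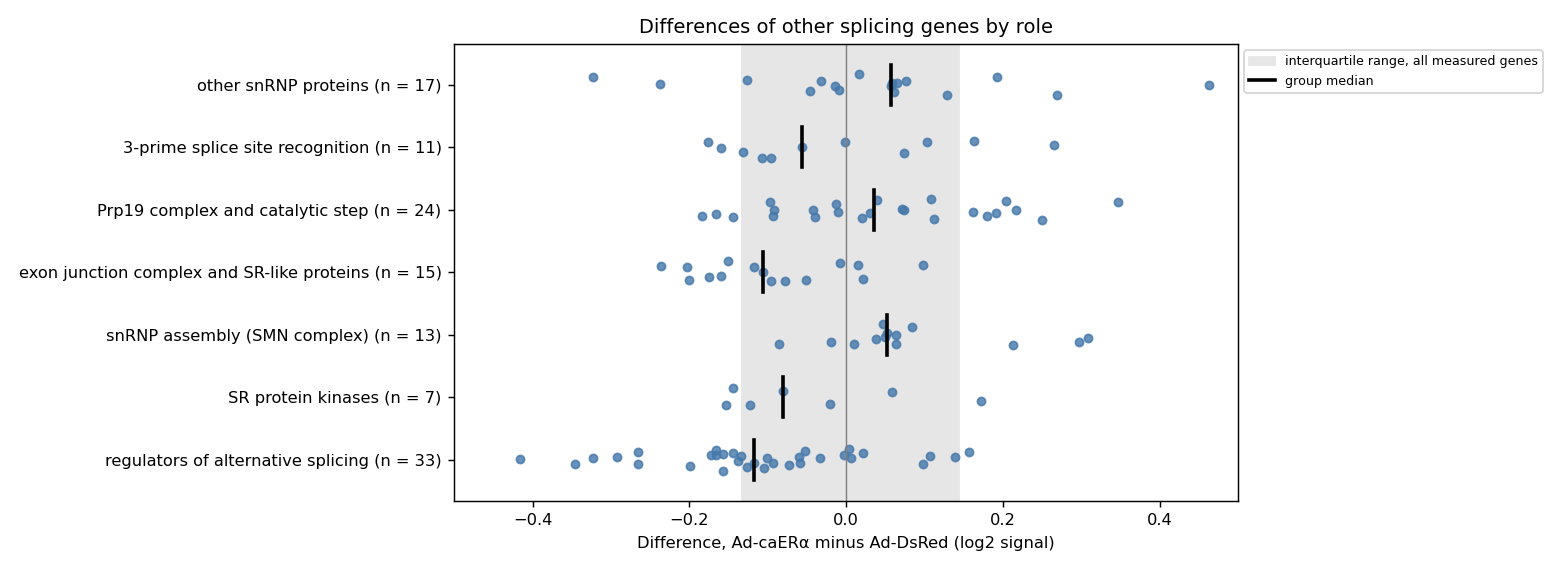
Difference in log2 signal (x axis) of 120 other splicing genes by role (points, 1 per gene; bars, group medians), with the interquartile range of all measured genes in grey. Regulators of alternative splicing (26 of 33) and exon junction and SR-like genes (12 of 15) lie mostly left of 0 and snRNP assembly genes (11 of 13) mostly right of it. Of all measured genes 48.8% were below 0 and 50.2% above.

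Set beside other housekeeping machinery on the same arrays, the splicing genes had the lowest median. It was -0.044 over 70 splicing genes, 0.066 over 57 cytosolic ribosomal protein genes, 0.034 over 48 translation initiation factor genes and 0.067 over 38 proteasome genes. Below 0 lay 62.9% of the splicing genes, 21.1% of the ribosomal protein genes, 41.7% of the initiation factor genes and 31.6% of the proteasome genes. With 1 array per vector these contrasts could not be tested between cultures.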

How the data were processed

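Gene expression was measured in 2 cultures, 1 per vector, on Affymetrix arrays from 150 ng of total RNA each. Per probe set, the authors deposited a log2 signal made with Affymetrix Expression Console and RMA, per the submitters' processing notes; no version, filter or number of arrays normalized together is stated there. RMA equalizes the arrays' distributions, so a change in total mRNA cannot be seen, and it compresses weak differences. The table held 35556 probe sets (median 6.05 for the control array, 6.02 for Ad-caERα). The platform annotation, from 2016, named 1 gene for 21789, several for 1621 and none for 12146. Gene identifiers of 21698 matched the RefSeq table of GRCm38.p6, which changed 0 symbols. The probe set with the highest mean signal stood for a gene.

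Members, gene lists and rules were chosen with earlier results of these data known. Named genes were, per class, the 3 highest and 3 lowest differences (all genes of small classes), the strongest and the weakest signal, and those past the smaller rule of 0.322; for the other splicing genes, the 3 highest, the 3 lowest and those past 1.5-fold. Further members and list genes were named for their roles after their values were seen. The number of arrays limits the precision. Scripts were tested on simulated data. Alternatives covered the floor, normalization, probe set rule, fold and summary. Python 3.11.15, numpy 2.4.6, pandas 2.3.3, statsmodels 0.14.6 and matplotlib 3.10.9 were used.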

Additional observations from a re-analysis of the deposited data

How the results depend on the processing

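No paired analysis was possible because both groups consist of a single array, and no replicate could be left out; the spread between cultures and the precision of single signals are unknown. The count of members past 2-fold stayed at 0 in both directions under both other floors, with sub-floor values set to the floor, and under centring, loess and averaging of probe sets; by the smaller rule of 0.322 (log2) 1 member was lower. By that smaller rule, recalculated after seeing the data, centring gave 2 higher and 0 lower members. The share of measured genes past this rule with centring is not given here, so these 2 counts have no background. Of 63 recalculated medians 55 moved by less than the probe set SD over the square root of the number of genes. The others were the median over all members (-0.015 with centring, -0.069 with loess, -0.018 as a mean), SF3b (0.17) and LSm (0.097) with probe sets averaged, Prpf as a mean (-0.047), and the other splicing genes, at -0.053 with loess and turning to 0.0024 with centring. This tolerance for medians treats genes as independent, which they are not, and is wider for small classes. The SF3a and Snrp medians changed sign under some settings and still fell within it. Centring also moved the median over all measured genes, to 0.032. Of 212 recalculations of 53 single genes, 211 moved by less than the probe set SD; the exception was Sf3b4 with probe sets averaged (0.28). The cause of these shifts was not tested. The floor settings could hardly act, since 70 of 71 members passed the higher floor, at the 99th percentile, too.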
